A study of Bos taurus with 30 samples.

Results

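The 44 genes described here are those that the study's supplementary enrichment lists placed under terms of transcription, gene expression or cis-regulatory DNA binding among genes lower after 24 h of blood storage, in peripheral white blood cells (PWBCs, the nucleated cells of the buffy coat) of cattle. Those terms held 48 genes, of which LEF1, OSM, TLR4 and F2R were left out by rule, and the 44 that remained are 44 of the 27607 genes counted and 44 of the 13630 that passed a filter on low counts. The list was therefore chosen on the contrast between jugular blood at 24 h and at 1 h, and every value of that contrast, calls by edgeR and DESeq2 included, is given here only to describe the list: none of them is a test of it. It includes many genes that do not bind DNA: 21 carried a DNA-binding or cis-regulatory term, and most others entered through terms for the regulation of transcription or gene expression. ZNF618, a zinc finger gene placed here among the DNA-binding factors by its family, entered through 1 term for transcription factor binding and carried no DNA-binding term, whereas the cofactor NCOA2 carried one.

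The libraries came from 5 crossbred beef heifers (Angus x Simmental) whose estrus had been synchronized and who had expressed estrus at sampling. Blood went into EDTA tubes. That of the tail (coccygeal) vein was processed at 1 h, and that of the neck (jugular) vein was kept at 4 °C for 1, 3, 6, 8 or 24 h until the buffy coat was taken. All groups share the synchronization, which used gonadotrophin-releasing hormone, a vaginal progesterone insert and a prostaglandin. Each heifer gave 1 library to each of 3 groups of 5: coccygeal 1 h, jugular 1 h and jugular 24 h (subjects A to E). A further 15 libraries were taken as jugular blood stored for 3, 6 or 8 h, because 15 samples carry those labels and the other 15 columns of counts are accounted for; neither the hour nor the subject of a single one of them is known here, so they are given as ranges and medians.

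Transcription in a white blood cell is set by factors that bind DNA at promoters and enhancers, by cofactors and chromatin enzymes that these factors recruit, and by surface receptors and kinases that pass signals to them. Lineage factors such as GATA3 and FOXP3 mark different T helper cells, GATA2 acts in blood progenitors, basophils and mast cells, and factors such as BACH1 and FOSL2 act in many cell types. In bulk RNA of PWBCs, fewer cells of a type and less RNA per cell cannot be told apart.

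Levels are counts per 1000000 fragments counted in a library (CPM), and 3 counts correspond to 0.154 to 0.242 CPM over the 30 libraries, whose totals ranged from 12412619 to 19492274. One of the 3-8 h libraries, library 3 in the order of the columns, stood apart: its median correlation with the other 29 libraries was 0.965 (Pearson, log2(CPM + 1)), against 0.976 to 0.985 for each of those. In it 10 of the 44 genes were above all other 14 libraries of 3-8 h and 10 were below them, against 10.3% and 29.0% of all genes. ACVR1B reached 73.5 CPM there (highest of the other 14, 35.4), FOSL2 reached 170.4 (98.1), BACH1 reached 167 (101) and SEMA4D reached 423 (267). The counts and medians over the list that use the 3-8 h libraries are given with and without it, while ranges and medians of single genes include it.

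The levels of the genes spanned a wide range before storage. Per kilobase of transcript, the median over the 10 libraries of 1 h was highest for IL7R, at 90.6 CPM per kb (range 51.9 to 129), followed by CD4 at 89.3 (75.0 to 115), SEMA4D at 49.1 (41.9 to 69.8) and CITED2 at 46.3 (41.8 to 58.6). The ranges of IL7R and CD4 overlapped, as did those of SEMA4D and CITED2, so neither pair can be ordered beyond its spread. At the other end lay ZKSCAN4 at 1.09 CPM per kb, KLF15 at 0.968 and GATA2 at 0.595 (0.0917 to 2.51). Summed over the 44 genes, the level was 1571 to 2044 CPM in coccygeal blood at 1 h, 1545 to 1942 in jugular blood at 1 h, 1341 to 2035 at 3-8 h (1341 to 1894 without library 3) and 892 to 1272 at 24 h. IL7R, CD4 and SEMA4D alone made up 38.1% to 46.7% of that sum in the jugular libraries of 1 h.

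**Figure D1:**
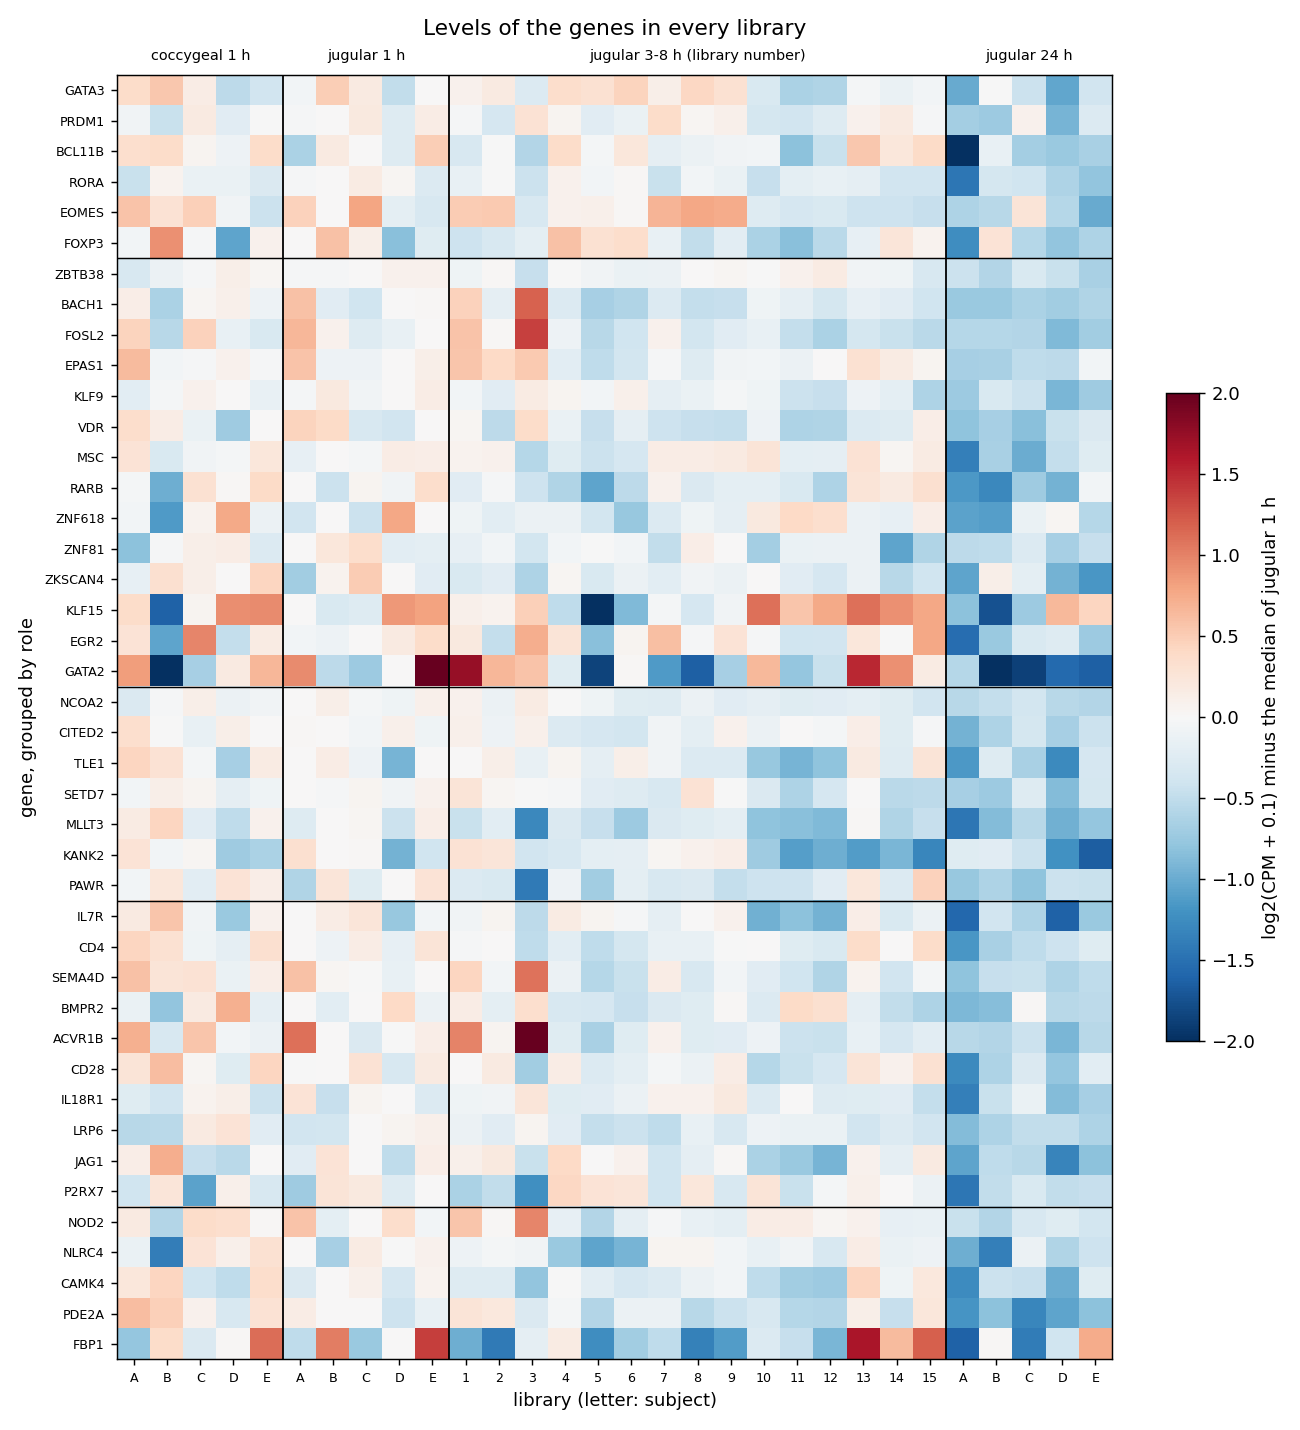
Level of 42 of the 44 genes (rows, grouped by role and ordered by mean level) in each of the 30 libraries (columns, letters naming subjects and numbers the 3-8 h libraries), as log2(CPM + 0.1) minus the gene's median in jugular blood at 1 h. Nearly all rows turn blue in the 24 h columns, most deeply in subject A, and library 3 of 3-8 h stands out in red for ACVR1B, FOSL2, BACH1, SEMA4D and NOD2.

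At 24 h the fitted log2 fold change against jugular blood at 1 h was below -0.5 for all 44 genes, which the choice of the list had fixed, with a median of -0.61 against 0.01 over all genes tested. By an FDR under 0.05 in both edgeR and DESeq2 and a log2 fold change below -0.5, 32 of the 44 were called lower, where 1.14% of all genes were. Since these values chose the list, nothing is read from that difference. The genes nearest the threshold were LRP6 at -0.505 and ZBTB38 at -0.509. Just outside it, among genes whose names were at hand, lay RBPJ, a DNA-binding partner of Notch, at -0.499 and GRAMD1B, a sterol transporter, at -0.489.

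The 12 that were not called were EGR2, FOXP3, GATA2, IL18R1, KANK2, KLF15, LRP6, P2RX7, PAWR, ZKSCAN4, ZNF618 and ZNF81. Of these, 6 had an FDR under 0.05 in edgeR only, among them EGR2 and GATA2, for which DESeq2 gave no adjusted p, and IL18R1 had one in DESeq2 only. With coccygeal blood at 1 h as the baseline, 18 of the 44 were called lower (0.961% of all genes), and the median fold change was -0.62. That comparison shares the 24 h libraries with the first and is a description too. Without the subject as a block, 4 of the 44 were called lower against jugular blood (0.066% of all genes).

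The size of the difference varied by subject. Subject A had the most negative difference between 24 h and jugular 1 h in 28 of the 44 genes and a median log2 difference of -1.08, whereas the medians of subjects B to E lay between -0.60 and -0.50. The summed level was lower by 54.0% in subject A and by 29.8% to 32.6% in the others. Without subject A, 15 of the 44 were called, with a median of -0.53, and calls over all genes went from 1.14% to 0.492% as well. The 15 were ACVR1B, BACH1, BCL11B, CD28, CITED2, EOMES, FOSL2, GATA3, IL7R, KLF9, NCOA2, NLRC4, PDE2A, RORA and ZBTB38. Across subjects, 39 of the 44 genes were lower at 24 h in 5 of 5 (13.9% of all genes), and BMPR2, FOXP3, IL18R1, ZKSCAN4 and ZNF618 in 4 of 5.

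**Figure D2:**
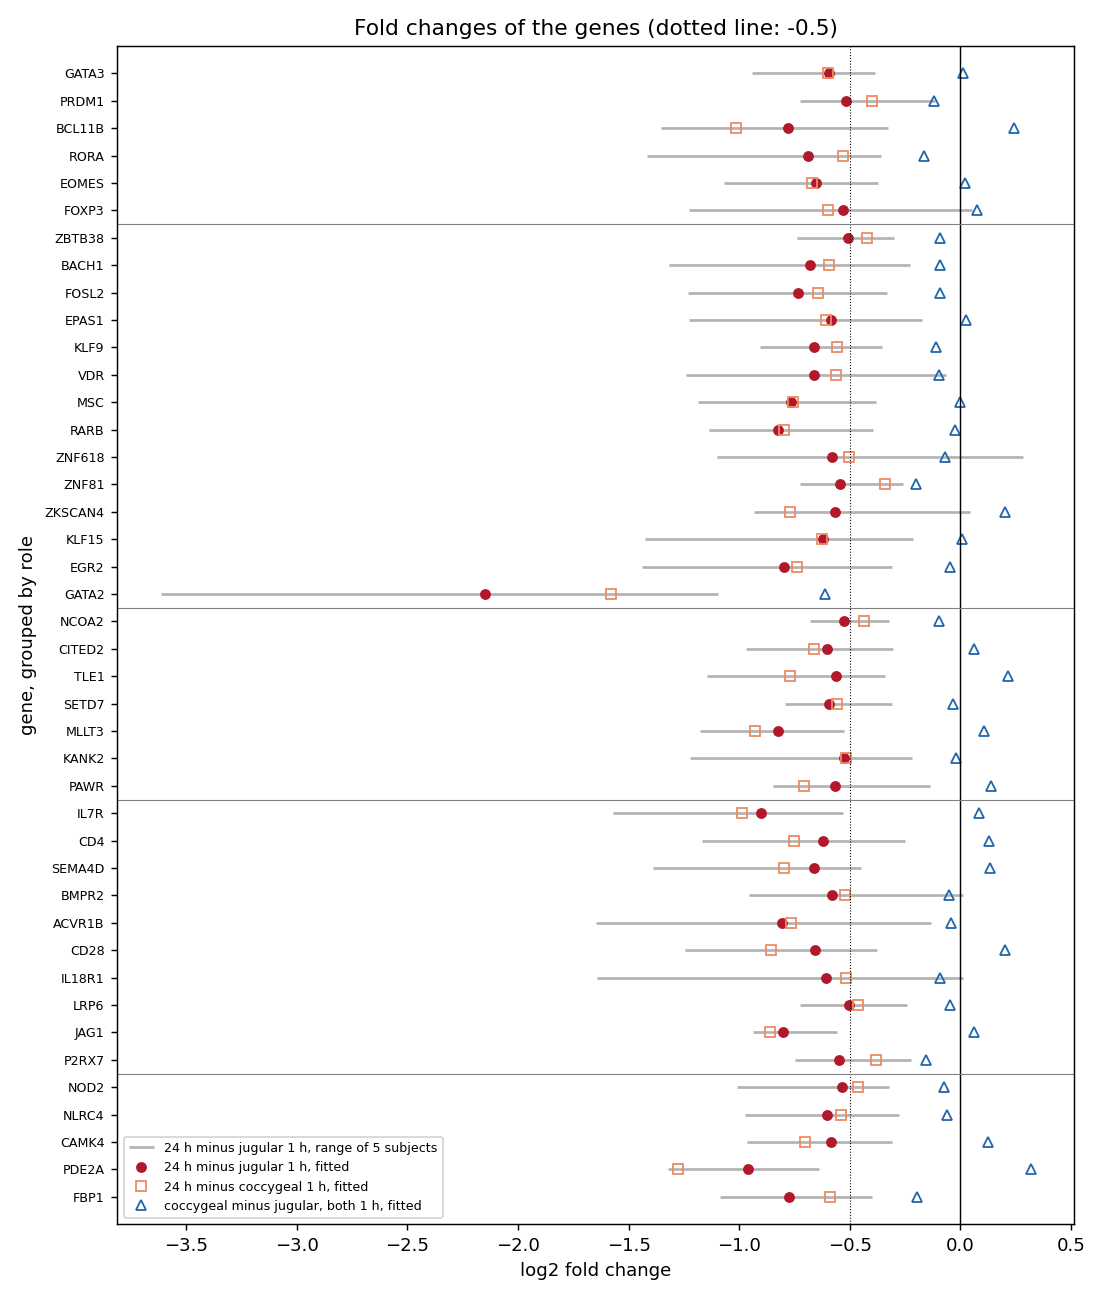
Fitted log2 fold changes of 42 of the 44 genes, grouped by role: 24 h against jugular 1 h (filled circles, with the range of the 5 subjects as a grey line), 24 h against coccygeal 1 h (squares) and coccygeal against jugular blood at 1 h (triangles). Circles and squares lie below 0 for every gene shown, while 40 of the 42 triangles lie within 0.25 of 0, the exceptions being GATA2 at -0.61 and PDE2A at 0.32.

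Of the 7 lymphocyte lineage factors, 6 are described here. Of those 6, 5 were called lower at 24 h, and their log2 fold changes ranged from -0.78 to -0.52 (median -0.62). GATA3, the factor of T helper 2 and innate lymphoid type 2 cells, lies on chromosome 13 (ENSBTAG00000017243, ARS-UCD1.2 positions 15906719 to 15935286, minus strand). In subjects A to E, GATA3 stood at 64.2, 72.3, 55.4, 34.9 and 38.2 CPM in coccygeal blood and at 48.0, 70.2, 56.4, 35.4 and 49.9 in jugular blood at 1 h. After 24 h it stood at 24.9, 49.7, 37.2, 24.4 and 38.3, and at 3-8 h it ranged from 32.2 to 68.3 (median 53.3). Every subject had fallen, subject A the most, yet subject B at 24 h lay above subject D at 1 h, so that the groups overlapped. The fitted log2 fold change was -0.59 [-0.94 to -0.38], where the brackets hold the range of the 5 subjects, as they do for the genes that follow.

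PRDM1 (Blimp-1), a repressor of transcription that acts in plasma cells and effector T cells, lies on chromosome 9 at 43843907 to 43866544 (ENSBTAG00000000816, minus strand). Its jugular values were 48.1, 48.7, 55.8, 40.6 and 53.8 CPM at 1 h and 30.4, 29.4, 51.5, 25.6 and 40.2 at 24 h, with a fitted change of -0.52 [-0.72 to -0.11]. Coccygeal blood held 46.6, 35.9, 55.5, 41.8 and 48.6, and the 3-8 h libraries spanned 37.4 to 62.6 (median 48.0). Subject C at 24 h stayed inside the range of 1 h, so that these groups overlapped as well.

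BCL11B, needed for commitment to the T cell lineage, lies on chromosome 21 at 64193536 to 64290496 (ENSBTAG00000018019, minus strand). It was measured at 35.4, 36.2, 29.3, 26.1 and 36.1 CPM in coccygeal blood, 18.1, 31.7, 28.0, 23.6 and 39.6 in jugular blood at 1 h and 7.00, 25.3, 17.5, 16.7 and 17.8 at 24 h, a fitted change of -0.78 [-1.35 to -0.32]. All 24 h values were below all coccygeal ones, but subject A was as low at jugular 1 h as others at 24 h. At 3-8 h BCL11B ranged from 15.9 to 40.7 (median 26.9).

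The others described were RORA and EOMES, called lower at -0.69 [-1.42 to -0.36] and -0.65 [-1.07 to -0.37], and FOXP3, the regulatory T cell factor, which was not called. FOXP3 went from 4.31, 6.50, 4.70, 2.38 and 3.63 CPM to 1.77, 5.22, 2.86, 2.46 and 2.76 (-0.53 [-1.23 to 0.05]), and subject D was not lower.

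The other 14 DNA-binding factors had changes from -2.15 to -0.51 (median -0.66), and 8 of them were called. ZBTB38, which binds methylated DNA, lies on chromosome 1 at 127530714 to 127574835 (ENSBTAG00000040061, minus strand) and was the most abundant of them by CPM. It stood at 80.8, 93.1, 100.06, 110.0 and 105 CPM in coccygeal blood, 99.99, 100.32, 101, 108 and 108 in jugular blood at 1 h and 74.9, 67.6, 82.4, 74.6 and 64.9 at 24 h (-0.51 [-0.74 to -0.30]). The jugular groups did not overlap, while the lowest coccygeal value, that of subject A, lay below the highest at 24 h. At 3-8 h ZBTB38 ranged from 73.5 to 113 (median 97.0), the lowest being library 3.

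BACH1, a haem-sensing repressor, lies on chromosome 1 at 6815185 to 6858058 (ENSBTAG00000004139, minus strand), and FOSL2, an AP-1 subunit, on chromosome 11 at 71340649 to 71360069 (ENSBTAG00000023929, minus strand). BACH1 was at 110.3, 63.0, 55.6, 73.7 and 75.3 CPM in jugular blood at 1 h and at 44.2, 43.9, 47.6, 45.7 and 48.4 at 24 h, and coccygeal blood held 80.7, 47.4, 75.9, 79.5 and 68.5 (-0.68 [-1.32 to -0.23]). FOSL2 was at 104, 69.7, 55.0, 59.4 and 65.9 in jugular blood at 1 h and at 44.2, 44.3, 43.7, 35.8 and 40.6 at 24 h, with 89.6, 44.9, 90.4, 59.3 and 53.4 in coccygeal blood (-0.73 [-1.23 to -0.33]). For both, subject A was the highest jugular library of 1 h, the 24 h values were close together, and the jugular groups did not overlap. The 3-8 h libraries ranged from 46.3 to 167 (median 61.0) for BACH1 and from 42.3 to 170.4 (median 51.7) for FOSL2, with library 3 on top in each case.

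GATA2, on chromosome 22 at 59346928 to 59355012 (ENSBTAG00000019707, plus strand), had the most negative fitted change of the whole list, -2.15 [-3.62 to -1.09]. The values were low: 3.07, 0.277, 1.03, 1.91 and 2.73 CPM in coccygeal blood, 3.33, 1.14, 0.978, 1.68 and 7.57 in jugular blood at 1 h and 1.096, 0.33, 0.39, 0.505 and 0.473 at 24 h. They rest on 15 to 94 counts per library at jugular 1 h and on 6 to 18 at 24 h. Subject E went from the highest value to one near the lowest, the groups overlapped, and coccygeal blood of subject B was as low, with 5 counts. At 3-8 h GATA2 ranged from 0.392 to 5.87 (median 1.71).

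Of the rest, the nuclear receptors VDR (vitamin D) and RARB (retinoic acid) changed by -0.66 [-1.24 to -0.07] and -0.83 [-1.13 to -0.39]. EPAS1 (HIF-2 alpha), which acts in the response to low oxygen, changed by -0.59 [-1.22 to -0.17], KLF9, a Krüppel-like factor that responds to glucocorticoids, by -0.66 [-0.91 to -0.36], and MSC (musculin) by -0.76 [-1.19 to -0.38]. These 5 were called. EGR2, an early growth response factor, was at 2.21, 2.11, 2.28, 2.61 and 2.98 CPM at jugular 1 h and at 0.73, 1.32, 1.82, 1.89 and 1.34 at 24 h. These jugular groups did not overlap. Coccygeal blood held 2.78, 1.05, 4.58, 1.61 and 2.56 CPM, which overlapped the 24 h values, and 24 h was lower than coccygeal blood in 3 of 5 subjects. KLF15 and the zinc finger genes ZNF618, ZNF81 and ZKSCAN4 had median levels under 5 CPM in jugular blood at 1 h and changes from -0.62 to -0.54, none of them called.

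The 7 cofactors and chromatin enzymes had changes from -0.83 to -0.52 (median -0.57), 5 of them called, and all 7 were lower in 5 of 5 subjects. NCOA2, a coactivator of nuclear receptors, lies on chromosome 14 at 33837784 to 34119578 (ENSBTAG00000020312, minus strand). It was at 102, 122, 134, 114 and 118 CPM in coccygeal blood, at 124, 134, 120.3, 117 and 133 in jugular blood at 1 h and at 84.2, 89.3, 96.1, 84.1 and 82.7 at 24 h (-0.53 [-0.68 to -0.32]). The subjects were close together within each group, and all 24 h values lay below all values of 1 h from either vein. At 3-8 h NCOA2 ranged from 95.2 to 139 (median 108).

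CITED2, which competes with HIF-1 alpha for the coactivators CBP and p300, lies on chromosome 9 at 77046182 to 77048572 (ENSBTAG00000011224, minus strand). Its values were 113, 88.2, 80.5, 96.6 and 89.3 CPM in coccygeal blood, 90.4, 89.1, 86.1, 96.0 and 83.8 in jugular blood at 1 h and 46.1, 57.8, 69.7, 56.4 and 66.4 at 24 h (-0.60 [-0.97 to -0.30]). These groups did not overlap either, and the 3-8 h range of 69.0 to 97.9 (median 85.2) touched the 24 h values only at its low end.

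TLE1, a Groucho corepressor on chromosome 8 at 57533899 to 57625114 (ENSBTAG00000000256, minus strand), was at 26.8, 24.2, 19.3, 12.5 and 22.3 CPM in coccygeal blood, at 19.8, 21.9, 18.4, 10.4 and 19.9 in jugular blood at 1 h and at 8.89, 16.5, 12.6, 8.14 and 15.7 at 24 h (-0.56 [-1.14 to -0.34]). Subject D was low in each group, which made the groups overlap, and the 3-8 h libraries ranged from 10.3 to 23.6 (median 17.8). MLLT3 (AF9), a subunit of the super elongation complex, lies on chromosome 8 at 23784601 to 24069145 (ENSBTAG00000014124, plus strand) and had the largest fall of the group. It was at 9.32, 11.3, 7.11, 5.85 and 8.81 CPM in coccygeal blood, at 6.93, 8.34, 8.54, 6.15 and 9.10 in jugular blood at 1 h and at 2.98, 4.50, 5.65, 4.23 and 4.81 at 24 h (-0.83 [-1.18 to -0.53]), without overlap. All 15 libraries of 3-8 h, from 3.34 to 8.48 (median 6.05), were below the coccygeal median of MLLT3. So was every jugular value of 1 h except that of subject E.

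SETD7, a lysine methyltransferase, was called at -0.59 [-0.79 to -0.31]. PAWR, a pro-apoptotic repressor, changed by -0.57 [-0.85 to -0.14] and KANK2, which binds nuclear receptor coactivators, by -0.52 [-1.22 to -0.22], and neither was called.

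Of the 11 surface receptors and ligands, 10 are described here. Of those 10, 7 were called, with changes from -0.90 to -0.50 (median -0.64). IL7R, the receptor through which interleukin 7 maintains naive and memory T cells, lies on chromosome 20 at 38299694 to 38334389 (ENSBTAG00000019975, minus strand) and had the most negative change of the group. Its level overlapped that of CD4. It was at 353, 458, 295, 186 and 332 CPM in coccygeal blood, at 311, 343, 370.1, 184 and 300.2 in jugular blood at 1 h and at 105, 237, 203, 102 and 186 at 24 h (-0.90 [-1.57 to -0.53]). Subject D was already low at 1 h, and the groups overlapped although each subject fell. At 3-8 h IL7R ranged from 159 to 348 (median 295).

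CD4, the coreceptor of helper T cells, lies on chromosome 5 at 103631360 to 103654878 (ENSBTAG00000003255, minus strand). Its values were 339, 311, 237, 222 and 312 CPM in coccygeal blood, 250.3, 234, 277, 225 and 299 in jugular blood at 1 h and 111, 160.4, 175, 189 and 213 at 24 h (-0.62 [-1.17 to -0.25]). No 24 h library reached any library of 1 h. The 3-8 h libraries ranged from 176 to 324 (median 226), and 13 of the 15 were below the coccygeal median, as was every jugular value of 1 h.

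SEMA4D (CD100), a semaphorin of T cells and other leukocytes, lies on chromosome 8 at 88627168 to 88753669 (ENSBTAG00000001941, plus strand). It was at 300.3, 239, 244, 183 and 217 CPM in coccygeal blood, at 299, 205, 199, 180.1 and 199 in jugular blood at 1 h and at 114, 145, 146, 129.7 and 141 at 24 h (-0.66 [-1.39 to -0.45]). The groups did not overlap, and subject A was the highest at 1 h in jugular and coccygeal blood. At 3-8 h the range was 132 to 423 (median 184).

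ACVR1B, a type I activin receptor, changed by -0.81 [-1.65 to -0.13], and its jugular value of 1 h in subject A, 38.2 CPM, was far above the 14.5 to 19.6 of the other 4. The Notch ligand JAG1 changed by -0.80 [-0.94 to -0.56], the costimulatory receptor CD28 by -0.66 [-1.24 to -0.38] and the type II BMP receptor BMPR2 by -0.58 [-0.95 to 0.01], and all of these were called. IL18R1 (-0.61 [-1.64 to 0.01]), the ATP-gated channel P2RX7 (-0.55 [-0.75 to -0.22]) and the Wnt coreceptor LRP6 (-0.50 [-0.72 to -0.24]) were not.

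All 5 sensors, kinases and enzymes were called, with changes from -0.96 to -0.54 (median -0.60). NOD2, a sensor of bacterial muramyl dipeptide, lies on chromosome 18 at 19089956 to 19119730 (ENSBTAG00000020936, plus strand), and NLRC4, an inflammasome subunit, on chromosome 11 at 14815806 to 14865722 (ENSBTAG00000008223, minus strand). NOD2 was at 31.1, 18.2, 35.5, 34.5 and 28.0 CPM in coccygeal blood, at 40.7, 24.0, 27.4, 34.8 and 26.5 in jugular blood at 1 h and at 20.1, 18.3, 21.8, 23.2 and 21.1 at 24 h (-0.54 [-1.01 to -0.32]), and the jugular groups did not overlap. NLRC4 was at 24.6, 10.2, 32.5, 28.8 and 33.5, 26.9, 16.9, 30.1, 26.6 and 28.4 and 13.6, 10.4, 24.8, 17.7 and 20.2 in the same groups (-0.60 [-0.97 to -0.28]). Subject B held the lowest NLRC4 value of each group, and these groups overlapped. Over 3-8 h NOD2 ranged from 18.2 to 54.1 (median 27.1) and NLRC4 from 12.9 to 30.0 (median 25.0).

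CAMK4, a calcium-dependent kinase that activates CREB in T cells and neurons, lies on chromosome 7 at 110296879 to 110565532 (ENSBTAG00000035662, plus strand). It was at 25.2, 29.0, 16.2, 14.98 and 27.5 CPM in coccygeal blood, at 17.5, 21.4, 23.0, 16.9 and 22.4 in jugular blood at 1 h and at 8.89, 15.9, 15.5, 10.7 and 18.1 at 24 h (-0.58 [-0.97 to -0.31]), with overlap between the jugular groups. At 3-8 h CAMK4 ranged from 12.3 to 29.0 (median 17.9). PDE2A, a phosphodiesterase that hydrolyses cAMP and cGMP, lies on chromosome 15 at 52090857 to 52228534 (ENSBTAG00000008419, minus strand) and had the next most negative change after GATA2. Its values were 23.7, 21.3, 16.2, 12.3 and 18.7 CPM in coccygeal blood, 16.9, 15.3, 15.5, 11.5 and 13.8 in jugular blood at 1 h and 6.70, 8.68, 6.17, 7.32 and 8.68 at 24 h (-0.96 [-1.32 to -0.64]), and no library of any other group was as low. Lying below all 25 other libraries at 24 h held for 2 of the 44 genes (0.117% of all genes), and below the 15 of 3-8 h for 2 (0.169%). The 24 h libraries chose the list, so nothing is read from that difference. The 3-8 h libraries of PDE2A, from 10.2 to 18.3 (median 12.5), were all below the coccygeal median, as was every jugular value of 1 h. All 15 were below it for MLLT3 and ZKSCAN4 too, and the share of all genes for which this held is not given here. FBP1, an enzyme of gluconeogenesis, changed by -0.78 [-1.09 to -0.40] and was the single gene of the list whose 24 h median was not below its 3-8 h median. For the other 43 it was below, as it was for 49.8% of all genes (43 and 52.0% without library 3), and the list was chosen on the 24 h libraries.

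**Figure D3:**
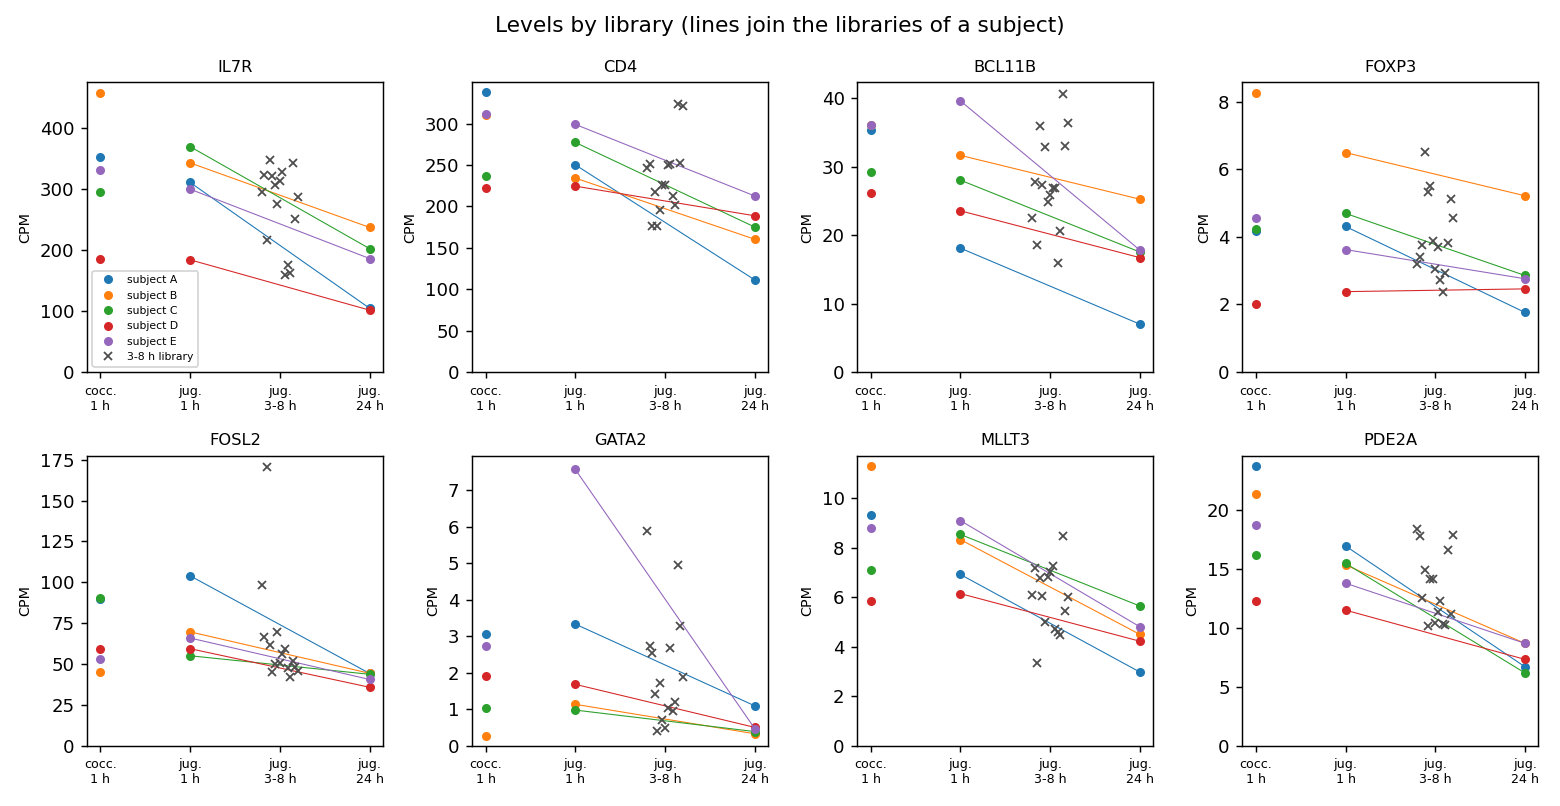
CPM of 8 genes by library: coccygeal 1 h, jugular 1 h, jugular 3-8 h (crosses, 15 libraries) and jugular 24 h, with points coloured by subject and lines joining the jugular libraries of a subject. PDE2A at 24 h lies below every other library, FOXP3 of subject D is not lower, GATA2 of subject E goes from 7.57 to 0.473 CPM, and library 3 is the top cross for FOSL2.

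Taken over whole groups, 24 h values lay below all 5 jugular libraries of 1 h for 20 of the 44 genes (2.50% of all genes) and below all 5 coccygeal libraries for 14 (1.60%). Both counts use the 24 h libraries that chose the list.

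The same genes were compared between veins at 1 h. The jugular libraries of 1 h helped to choose the list, so these fold changes are not independent of that choice. None of the 44 was called between coccygeal and jugular blood (0% of all genes, in edgeR alone and in DESeq2 alone as well, FDR under 0.05), and the lowest edgeR FDR among them was 1.00. At an unadjusted p under 0.05, edgeR listed 3 of the 44 (1.91% of all genes) and DESeq2 listed 1 (0.682%). Those of edgeR were PDE2A, higher in coccygeal blood by 0.32 in log2 (edgeR, unadjusted p = 0.00667, higher in 5 of 5 subjects), TLE1 by 0.22 (p = 0.0276, 5 of 5) and SEMA4D by 0.13 (p = 0.048, 5 of 5). Over the 44 genes the log2 fold change between veins ranged from -0.61, for GATA2, to 0.32, with a median of -0.03 against 0.00 for all genes. Leaving PDE2A and GATA2 aside, every gene was within 0.25.

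The libraries of 3-8 h share no sample with the contrast that chose the list when they are set against coccygeal blood, although the heifers are the same. The 3-8 h median was below the coccygeal median for 38 of the 44 genes, against 45.6% of all genes, and for 38 again without library 3 (42.8%). Among the exceptions were P2RX7, IL18R1, MSC, PRDM1 and EPAS1. Against jugular blood at 1 h, the same vein, 35 of the 44 were lower (45.4% of all genes), and 36 without library 3 (42.4%). The jugular libraries of 1 h helped to choose the list, so nothing is read from this second count. Set against coccygeal blood, the 3-8 h blood differs in vein as well as in storage, and these cannot be told apart. The median of the log2 ratios to coccygeal blood was -0.17, compared with 0.01 over all genes (-0.19 and 0.02 without library 3). No gene had its 15 values all below the 5 coccygeal values (0% of all genes), so the 3-8 h and coccygeal libraries overlapped for each of the 44. The subject and hour behind each 3-8 h library are not known here, and the difference was not tested.

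By role, the median log2 ratio of 3-8 h to coccygeal blood was -0.49 for the sensors, kinases and enzymes (all 5 lower) and -0.27 for the cofactors (all 7 lower). It was -0.16 for the receptors and ligands (9 of 11 lower), -0.13 for the other DNA-binding factors (12 of 14) and -0.06 for the lymphocyte lineage factors (5 of 7). Without library 3 these were -0.47 (5), -0.20 (7), -0.14 (8), -0.17 (13) and -0.04 (5), so that the receptors and the other DNA-binding factors changed order. Against jugular blood at 1 h the ratios were -0.26, -0.23, -0.11, -0.11 and -0.02 in the same order of roles, and without library 3 they were -0.22, -0.24, -0.08, -0.12 and -0.02, where the cofactors lay below the sensors.

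Among single genes the most negative ratios to coccygeal blood were those of PDE2A at -0.58, MLLT3 and FBP1 at -0.54, CAMK4 at -0.49 and CD4 at -0.46. To jugular blood at 1 h they were -0.29 for PDE2A, -0.46 for MLLT3, -0.52 for FBP1, -0.26 for CAMK4 and -0.15 for CD4, and FOSL2 (-0.35), KANK2 (-0.32) and PAWR (-0.30) then lay below PDE2A. The order of the genes thus depended on the baseline. FBP1 varied widely between heifers, from 2.37 to 9.03 CPM in coccygeal blood and from 2.41 to 10.9 in jugular blood at 1 h. Its ratios compare medians that are not paired by heifer, so its place in this order is uncertain. Of the lymphocyte lineage factors described, BCL11B had a ratio to coccygeal blood of -0.40, EOMES of -0.27, FOXP3 of -0.17, GATA3 of -0.06, RORA of -0.03 and PRDM1 of 0.04.

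**Figure D4:**
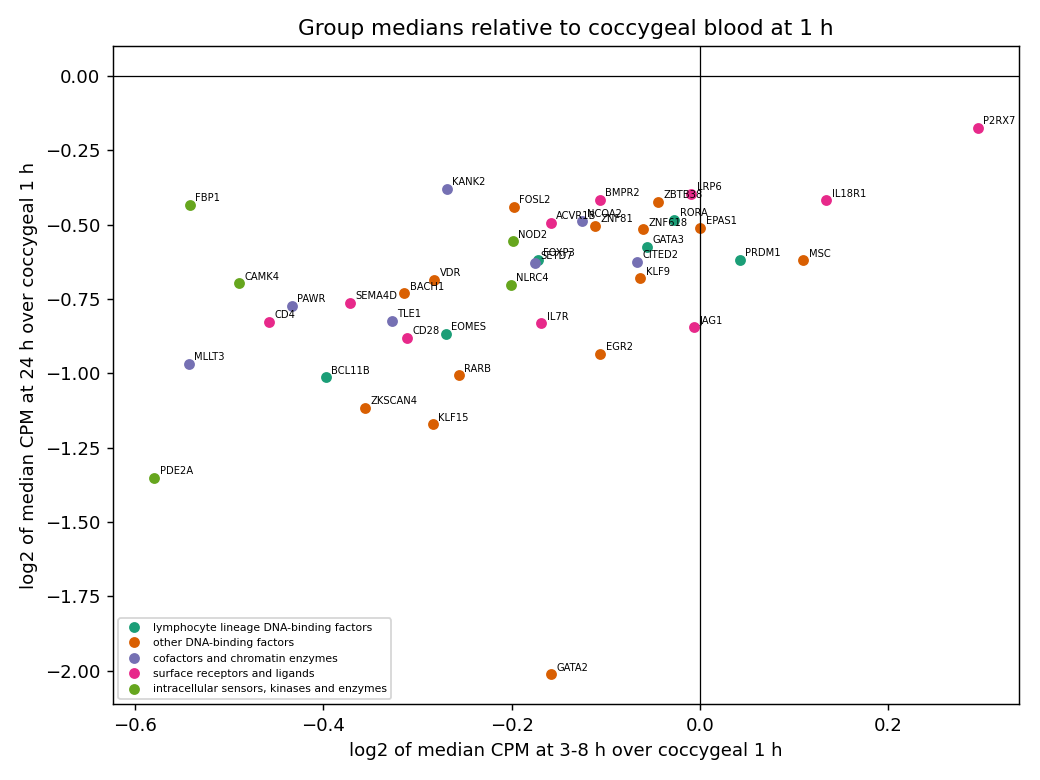
Log2 ratio of the median CPM at 3-8 h (x axis) and at 24 h (y axis) to the coccygeal median at 1 h, one point per gene for 42 of the 44 genes, coloured by role. Every point lies below 0 on the y axis and 37 of 42 lie left of 0 on the x axis, with PDE2A, MLLT3, FBP1, CAMK4 and CD4 farthest left and GATA2 lowest.

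Genes that mark cell types moved beside some of these. Of 9 T cell markers listed, 4 are given here, and CD2, CD6 and CD8A were called lower at 24 h (log2 fold changes of -0.61, -0.52 and -0.60), while SKAP1 was at -0.10 and not called. The summed level of the 4 was 281 to 334 CPM in jugular blood at 1 h, 195 to 360.3 at 3-8 h and 173 to 297 at 24 h. CD2, CD6 and CD8A could be named because the study's enrichment lists of changed genes hold them, so their fall is not independent of that choice. Among 3 of 6 monocyte markers, VCAN was called lower (-0.69, named through the same lists), and CD68 and CX3CR1 were at -0.09 and 0.05. Among 4 of 7 markers of eosinophils, basophils and mast cells, IL5RA was called lower (-0.56), and CCR3, GATA1 and KIT were at 0.16, 0.03 and -0.37. CD79A of B cells stood at 0.18 and FCGR3A at -0.02, neither called. Of the NK and cytotoxic markers PRF1, GZMB and CD244 (-0.32, -1.47 and -0.14), none was called, and GZMB too was named through the study's enrichment lists. PRF1 and KIT had FDRs under 0.05 in both tools (edgeR 0.0204 and 0.0152, DESeq2 0.00505 and 0.0267) and missed only the fold threshold. Markers of platelets and red cells could not be named here. The part of cell makeup in the changes of the 44 genes was not tested.

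Of 57 relatives of these factors and receptors listed by family, 6 were named, tested and given here, and none was called in either comparison. Over all genes, 1.14% were called lower at 24 h and 0% between veins, so nothing is read from this count. The count of relatives covers calls in either direction, and the share of all genes called higher at 24 h is not given here. TCF7 and TLE4 had edgeR FDRs of 0.00701 and 0.0385 at 24 h, with changes short of the fold threshold of 0.5. TCF7, a T cell factor, was at -0.38 at 24 h, TLE4 at -0.21 beside -0.56 for its relative TLE1, and GATA1 at 0.03 beside -2.15 for GATA2 and -0.59 for GATA3. NR4A1, NR4A2 and RXRB lay between -0.03 and 0.17.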

How the data were processed

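RNA of PWBCs was sequenced from a stranded poly(A) library kit. The authors trimmed the adapters with cutadapt 2.8, used HISAT2 2.2.0 for alignment to the ARS-UCD1.2 genome and removed duplicates (SAMtools 1.10 was among the tools). FeatureCounts (Subread 2.0.1), run without strand, gave the fragments of each Ensembl gene, and the authors deposited these counts for 27607 genes without normalization. Fragments of overlapping or antisense genes cannot be told apart.

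The subject and group of 15 columns came from the study's supplementary code, and the other 15 columns were taken as 3-8 h because 15 samples carry those labels. Counts were divided by the library total (CPM), and the 13630 genes over 1 CPM in at least 5 of those 15 libraries were fitted with edgeR 4.0.16 (quasi-likelihood, library size only) and DESeq2 1.42.0 (Wald) in R 4.3.3, with the subject as a block. Libraries with the same letter come from the same animal, and their deviations from the group means correlated at 0.41 to 0.87 over both comparisons. A gene was called with an FDR (Benjamini-Hochberg) under 0.05 in both tools and an absolute edgeR log2 fold change above 0.5. The study's filter on FPKM was not applied. Differences of single subjects used 2 added counts. The steps were tested on simulated counts with 200 genes changed by a log2 fold of 1, of which 88.5% were called in the right direction. Smaller changes, such as the list's median of -0.61, were not simulated.

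The members and lists were chosen with earlier results of these data known, and the 24 h contrast chose the members. Full values are given, in each role, for the 3 members with the highest mean CPM over the 15 libraries and the member with the most negative fold change. Names, coordinates and transcript lengths came from supplementary tables, which named 1733 of the genes tested. That of all genes was shortened and ordered by identifier, so names beyond it are those of genes in the study's lists of changed genes. Sequences of promoters or proteins, and the planned motif search, were not used here. Alternatives were TMM scaling, each tool alone, no fold threshold, other filters, no block, another baseline, the mean of log2(CPM + 1) for the median, and leaving out each subject; leaving out library 3 was added after seeing the data. Of the 44 members, 2 are not reported here one by one, nor are some markers and relatives, and counts over the list include those members.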

Additional observations from a re-analysis of the deposited data

Results flagged for a closer look

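In each of the 3 groups of 5 libraries the highest and the lowest value of every one of the 44 genes were compared with the rest (Dixon's test at the 95% level, gap over range above 0.71), and 10 values stood apart over 132 groups. Chance flags about 1 in 20 groups.

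Subject A held several of them at 1 h. In its jugular library ACVR1B was at 38.17 CPM (other 4, 14.55 to 19.58), SEMA4D at 299.4 (180.1 to 204.7) and EPAS1 at 27.50 (17.27 to 20.14). EPAS1 was also high in its coccygeal library, at 28.82 CPM (17.94 to 19.63). At 24 h the same subject held the lowest P2RX7, 1.704 CPM (3.405 to 3.898), and the highest GATA2, 1.096 CPM (0.3295 to 0.5048).

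The others were EOMES in subject C at 24 h, at 17.02 CPM (7.022 to 9.666), EPAS1 in subject E at 24 h, at 17.83 (11.69 to 13.06), NLRC4 in subject B at jugular 1 h, at 16.89 (26.64 to 30.07), and ZNF618 in subject D at jugular 1 h, at 7.952 (3.392 to 4.602). EOMES of subject C was high in jugular blood at 1 h too, where it was at 24.79 CPM.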

How the results depend on the processing

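Of the 44 genes, 32 were called lower at 24 h than in jugular blood at 1 h. Without the replicate block 4 were called, and with coccygeal blood as the baseline 18. Leaving out 1 subject at a time gave 15 (subject A) to 30 (subject C), while 67 to 182 of all genes were called lower in the same fits. In all 5 of these fits 10 genes were called: BCL11B, CD28, CITED2, EOMES, FOSL2, GATA3, IL7R, KLF9, NLRC4 and PDE2A. SEMA4D, BMPR2 and VDR were called in only 1 of the 5. These fits use libraries that chose the list, and the share of all genes called in all 5 is not given here. TMM scaling, each tool alone and other filters gave 31 to 38. Over all genes, TMM scaling and other filters gave 145 to 159 called lower, and counts for each tool alone are not given here. Dropping the fold threshold could not change the count, because the choice of the list had put all 44 below it. Over all genes, 155 were called lower in the fit with the block and 9 without it. No fitted fold change of the 44 genes at 24 h changed sign under any alternative run. The list was chosen for negative changes in these libraries, so nothing is read from this, and the share of all genes is not given here. Between veins 0 were called under each alternative. The count of 38 genes lower at 3-8 h than in coccygeal blood became 34 to 39 under the alternatives, and 30 of the 35 genes above 5 CPM. The alternatives with other filters test other numbers of genes. At the depth of these libraries, genes near 1 CPM such as GATA2 and KLF15 rest on few counts, and intervals of single values were not computed.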

Other observations

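Among the 15 libraries of 3-8 h, FBP1 was highest in library 13, at 12.9 CPM, where the median was 2.87. In library 3, 29% of all genes were below all other 14 libraries of 3-8 h and 10.3% were above them. The T cell genes CD4, CD28 and CAMK4 were among those below, at 176, 7.58 and 12.3 CPM, as were ZBTB38, MSC and P2RX7. IL7R (217) and BCL11B (18.6) were within the range of the other 14. Of the 4 T cell markers given, CD2, CD6 and SKAP1 were the lowest of the 15 there, at 39.6, 57.7 and 66.6 CPM, and CD8A was not, at 31.6 (lowest, 26.3). Of the 3 monocyte markers given, CD68 and VCAN were the highest of the 15, at 125 and 513 CPM, while CX3CR1 was below its median, at 135 (median, 196).

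By position, the 44 genes lie on 21 chromosomes. Chromosome 8 holds 6 of them (FBP1, KLF9, MLLT3, SEMA4D, TLE1 and ZNF618) and chromosome 5 holds 5 (ACVR1B, CD4, LRP6, PAWR and VDR).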
